A study of Mus with 35 samples.

Results

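The response of the wild-type (WT) mouse brain to an antisense oligonucleotide (ASO) against Hnrnph2 was measured at 3 weeks of age, in the cohort bred for the P209L substitution in Hnrnph2. The libraries were taken as those titled as WT with the Hnrnph2 ASO (n = 3) or WT with the control ASO (n = 3) at 3 weeks whose library numbers belong to the series of that cohort. These were 6 of the 35 libraries of the study, and all 16511 genes whose mean over the 6 reached 1 TPM (transcript abundance scaled for length and to the same total in every library) were tested. The other libraries used beside them were P209L with the Hnrnph2 ASO (n = 2) and P209L with the control ASO (n = 3) of the same cohort, WT of the R206W cohort at 3 weeks (n = 3 with each ASO) and WT of the 8-week P209L cohort (n = 3 with each ASO). All mice were C57BL/6J males that had received 1 bolus of 30 µg of the Hnrnph2 ASO or the control ASO into the brain ventricles at postnatal day 2 to 4, so the comparison is between 2 oligonucleotides and holds no uninjected brain. The sequence, chemistry and mode of action of either ASO are not given in the sources used here.

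Hnrnph2 is an X-linked gene for a member of the hnRNP H/F family, nuclear proteins that bind runs of guanines in RNA and take part in splicing and polyadenylation. Its close relative Hnrnph1, on an autosome, encodes a protein of nearly the same domain layout. ASOs made to lower an RNA commonly pair with it in the cell, where the enzyme RNase H1 then cuts the RNA strand of the hybrid. The P209L substitution falls in the nuclear localization signal of the protein, and in WT mice the ASO lowers the RNA of the normal protein.

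The 6 libraries each held between 16235 and 16649 genes at 1 TPM or more, and read depth is unknown because TPM keeps no totals. The labels name both whole brain and dissected cortex. A marker of the cortex was present, with Neurod6 at 35.2 to 41.3 TPM over the 6 libraries, but so were markers of other regions. Cbln3 of cerebellar granule cells was at 64.8 to 98.9 TPM, Pcp2 of Purkinje cells at 177 to 288 TPM, Pmch of the hypothalamus at 29.3 to 39.6 TPM and Ttr of the choroid plexus at 591 to 903 TPM. The titles carry animal-like name stems, of which 3 occurred with the Hnrnph2 ASO, 3 with the control ASO and 0 with both, so that ASO and stem cannot be told apart. The library WT Hnrnph2 ASO replicate 3 stood apart from the other 5. Across genes on the log2 scale it correlated with them at r = 0.974 to 0.977, against 0.983 to 0.987 among the others, and mitochondrially encoded genes held 9.28% of its TPM, against 12.5% to 13.9% in the other 5. For the genes and lists that it moved most, the value without it stands beside the value from all libraries.

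The targeted gene was the strongest difference in the comparison. Hnrnph2 (mm10, X:134601179 to 134607060) stood at 16.4, 18.2 and 19.3 TPM in the 3 WT Hnrnph2 ASO libraries, against 111, 102 and 115 TPM in the 3 WT control ASO libraries. Every Hnrnph2 ASO library lay far below every control ASO library, and the spread within each group was small beside the gap. The means were 17.96 ± 1.49 TPM with the Hnrnph2 ASO and 109 ± 6.66 TPM with the control ASO (SD, n = 3 each), a level 83.5% lower. The log2 fold change on the log2(TPM + 1) scale was -2.54 (SE 0.080, limma adjusted p = 1.95e-07), and the exact two-sided permutation p was 0.1, the smallest that 3 libraries against 3 allow.

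Hnrnph1 (11:50375257 to 50386528) rose. It stood at 397, 365 and 409 TPM with the Hnrnph2 ASO, against 253, 242 and 246 TPM with the control ASO. The groups did not overlap, and the control ASO libraries differed among themselves by little. The means were 390 ± 22.8 TPM with the Hnrnph2 ASO and 247 ± 5.55 TPM with the control ASO (SD, n = 3 each), a ratio of 1.58 and a log2 fold change of 0.66 (SE 0.053, adjusted p = 0.00125, exact permutation p = 0.1, the smallest possible). The call ended when limma was fitted to the 6 libraries alone (adjusted p = 0.0603), and it held without replicate 3 of the Hnrnph2 ASO (log2 fold change 0.62). The proteins and transcripts of Hnrnph1 and Hnrnph2 are alike, so how the authors' quantification split shared reads between the genes is uncertain.

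In TPM the gain of Hnrnph1 was larger than the loss of Hnrnph2, 143 TPM against -91.0 TPM. The sum of both genes was 408 ± 23.1 TPM with the Hnrnph2 ASO and 356 ± 10.8 TPM with the control ASO (SD, n = 3 each), and the groups did not overlap, at 383 to 428 TPM with the Hnrnph2 ASO and 344 to 364 TPM with the control ASO. Hnrnph2 made up 4.40% of that sum with the Hnrnph2 ASO and 30.6% with the control ASO. In the other comparisons the sum of both genes was 433 ± 24.7 TPM with the Hnrnph2 ASO and 445 ± 31.5 TPM with the control ASO in WT of the R206W cohort, 429 ± 27.6 and 425 ± 15.1 TPM in WT at 8 weeks, and 344 ± 2.27 TPM (n = 2) and 372 ± 5.08 TPM in P209L at 3 weeks.

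The levels behind the larger ratio of Hnrnph1 differed from the other WT cohorts mainly among the control ASO libraries. With the Hnrnph2 ASO, Hnrnph1 averaged 390 ± 22.8 TPM here, 408 ± 23.6 TPM in the R206W cohort and 411 ± 23.1 TPM at 8 weeks (SD, n = 3 each). With the control ASO it averaged 247 ± 5.55 TPM here, 342 ± 25.1 TPM in the R206W cohort and 320 ± 18.5 TPM at 8 weeks. The P209L libraries of the same cohort averaged 330 ± 0.686 TPM with the Hnrnph2 ASO (n = 2) and 271 ± 6.74 TPM with the control ASO (n = 3). The log2 fold change of 0.66 exceeded that in WT of the R206W cohort by 0.40 (SE 0.091, unadjusted p = 0.000158) and that in WT at 8 weeks by 0.29 (SE 0.091, unadjusted p = 0.00324). Neither difference passed the limma test over all genes (adjusted p = 0.869 and 0.999), and nor did the difference of 0.38 from the effect in P209L (SE 0.080, adjusted p = 0.583).

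The remaining members of the hnRNP H/F family did not pass the test. Hnrnph3 (10:63014664 to 63023980) was at 40.4, 40.1 and 50.3 TPM with the Hnrnph2 ASO and at 37.9, 42.5 and 36.2 TPM with the control ASO (log2 fold change 0.16, SE 0.114). Hnrnpf (6:117900340 to 117925622), whose protein also binds runs of guanines, was at 99.2, 91.7 and 107 TPM with the Hnrnph2 ASO and at 102, 89.5 and 100.1 TPM with the control ASO (0.03, SE 0.073). Grsf1 (5:88659233 to 88676171), a mitochondrial RNA-binding relative, was at 83.8, 82.9 and 108 TPM with the Hnrnph2 ASO and at 94.3, 75.04 and 83.4 TPM with the control ASO (0.11, SE 0.109). The groups overlapped for all 3 genes, and in each the highest library was replicate 3 of the Hnrnph2 ASO. Without that library the log2 fold changes were 0.05 for Hnrnph3, -0.03 for Hnrnpf and -0.01 for Grsf1.

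**Figure D1:**
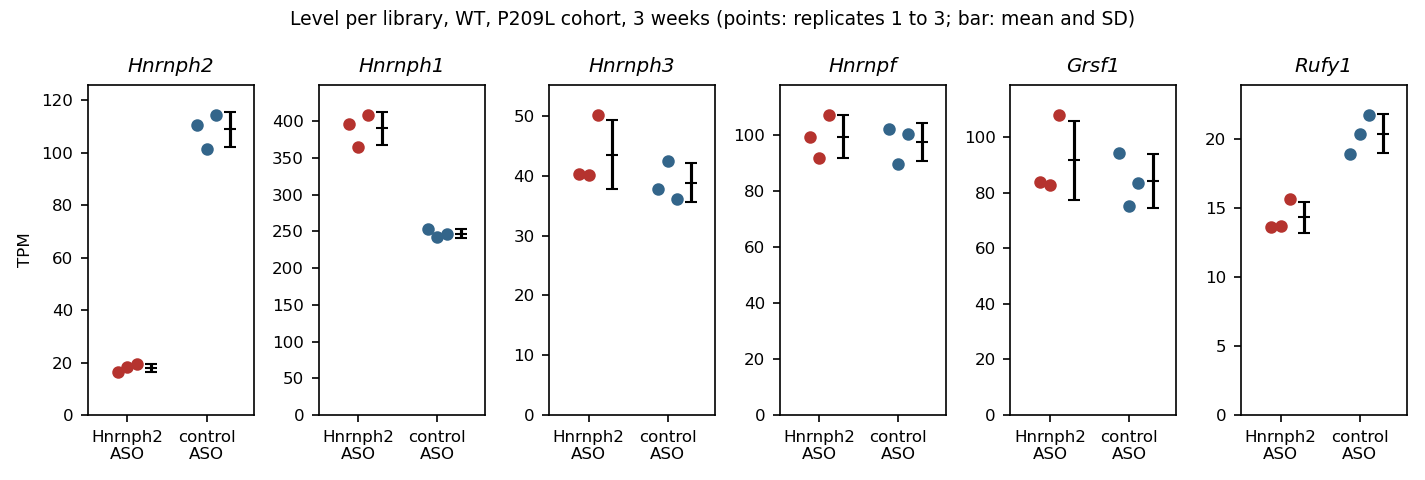
TPM of the 5 genes of the hnRNP H/F family and of Rufy1, the neighbour of Hnrnph1, in each of the 3 Hnrnph2 ASO libraries (left in each panel) and the 3 control ASO libraries, with the mean and SD. The groups are apart for Hnrnph2 (means 17.96 and 109 TPM), Hnrnph1 (390 and 247 TPM) and Rufy1 (14.3 and 20.4 TPM) and overlap for Hnrnph3, Hnrnpf and Grsf1.

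Hnrnph2 and Hnrnph1 were the only genes that limma called at an adjusted p under 0.05, which is 0.0121% of the 16511 tested, 1 lower (0.00606%) and 1 higher (0.00606%). At an unadjusted p under 0.05 there were 674 genes (4.08%), 461 of them higher (2.79%) and 213 lower (1.29%). The groups did not overlap in TPM for 1405 genes (8.51%), 917 higher (5.55%) and 488 lower (2.96%). Most changes were small, with 97.7% of the log2 fold changes within 0.5 of 0 and the 5th to 95th percentile running from -0.18 to 0.28, around a median of 0.04 (0.01 without replicate 3 of the Hnrnph2 ASO). Leaving out the WT control ASO library replicate 2 gave 8 calls and leaving out its replicate 3 gave 4 calls, while without replicate 3 of the Hnrnph2 ASO the calls were again Hnrnph2 and Hnrnph1.

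**Figure D2:**
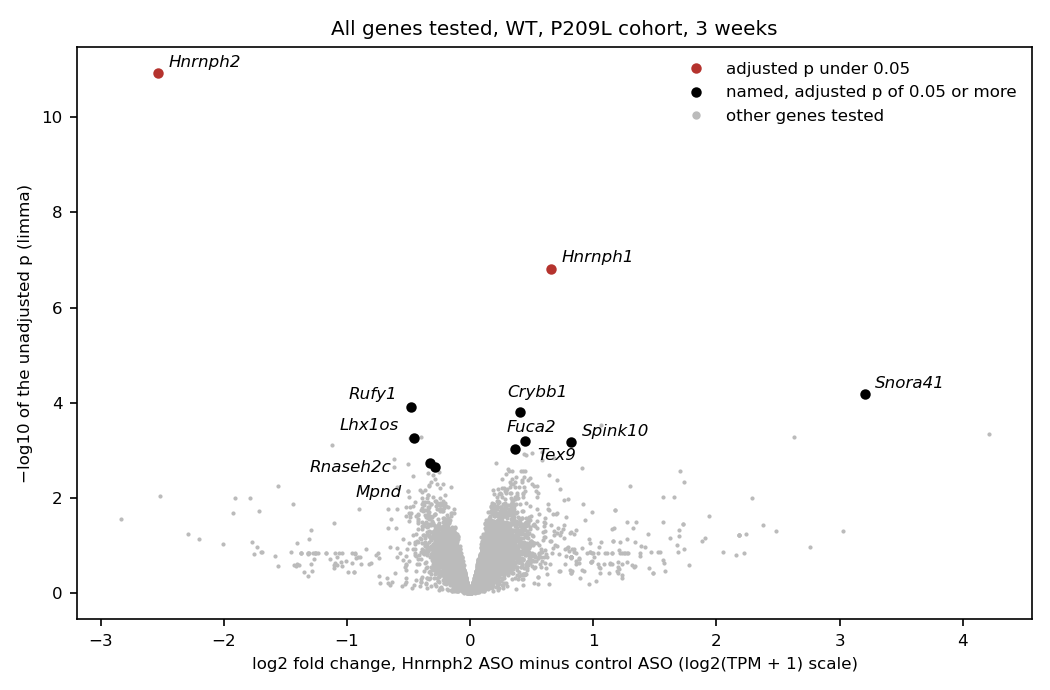
Log2 fold change of each of the 16511 genes tested (Hnrnph2 ASO minus control ASO, horizontal) against −log10 of its unadjusted limma p (vertical). Hnrnph2 at -2.54 and Hnrnph1 at 0.66 stand alone in red as the genes past an adjusted p of 0.05, and the named black points below them did not pass.

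Among the genes that did not pass, those with the smallest p whose groups did not overlap are given as values. Lowest in p among the falls was Rufy1 (11:50389286 to 50431274), which encodes an adaptor of early endosomes and lies 2757 bases from Hnrnph1. Rufy1 was at 13.7, 13.7 and 15.7 TPM with the Hnrnph2 ASO, against 19.0, 20.4 and 21.8 TPM with the control ASO (log2 fold change -0.48, SE 0.081, adjusted p = 0.518). All 3 Hnrnph2 ASO libraries lay below all 3 control ASO libraries. In the fit of all 35 libraries, which shares the spread over 12 groups, Rufy1 passed (adjusted p = 0.0269).

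Mpnd (17:56009201 to 56016790) was at 73.3, 80.2 and 79.0 TPM with the Hnrnph2 ASO and at 99.8, 98.1 and 86.2 TPM with the control ASO (-0.28, SE 0.071, adjusted p = 0.935). The other falls given by the same rule were Lhx1os (-0.45), Pir (-0.46), Rnaseh2c (-0.32), Nudt17 (-0.30), Nkain2 (-0.28) and Adsl (-0.25), none of which passed. Rnaseh2c encodes a subunit of RNase H2, an enzyme distinct from RNase H1.

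Among the rises that did not pass, Crybb1 (5:112254563 to 112269585), a crystallin gene that mouse microglia also express, was at 10.8, 10.8 and 11.2 TPM with the Hnrnph2 ASO and at 8.00, 8.25 and 7.83 TPM with the control ASO (0.40, SE 0.070, adjusted p = 0.518). The groups were narrow and apart. Crybb1 was called higher in P209L, where the log2 fold change was 1.06 (adjusted p = 0.000196), and was at 3.56 ± 0.690 TPM with the Hnrnph2 ASO and 3.58 ± 0.480 TPM with the control ASO in WT at 8 weeks (SD, n = 3 each). Fuca2 (10:13500570 to 13519035), the gene of an alpha-fucosidase, was at 55.1, 50.6 and 63.8 TPM with the Hnrnph2 ASO and at 44.9, 42.8 and 42.7 TPM with the control ASO (0.36, SE 0.080, adjusted p = 0.935), and it passed in the fit of all 35 libraries (adjusted p = 0.0269). The small nucleolar RNA Snora41 (1:63179023 to 63179135) was at 11.9, 6.80 and 6.80 TPM with the Hnrnph2 ASO and was listed at 0 in all 3 control ASO libraries, so no fold is given. Snora41 was called when limma was fitted to the 6 libraries alone. In the other groups it was mostly listed at 0. With the Hnrnph2 ASO it was at 0 and 0 TPM in P209L and at 0, 0 and 4.02 TPM in WT of the R206W cohort. In WT at 8 weeks it was at 0, 3.22 and 0 TPM with the same ASO, and P209L with the control ASO had 3.77, 0 and 0 TPM. The remaining rises were Spink10 (0.82), Tmc4 (0.59), Tmem86b (0.50), Tex9 (0.45), Bbs12 (0.44) and the pseudogene Trmt112-ps2 (0.36).

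The neighbours of Hnrnph2 on the X chromosome did not fall with it. Gla, which encodes alpha-galactosidase A and lies 173 bases from Hnrnph2, was at 6.84, 7.25 and 9.22 TPM with the Hnrnph2 ASO and at 7.14, 7.31 and 6.53 TPM with the control ASO (0.13, SE 0.106). Rpl36a, a ribosomal protein gene beside Gla, was at 215, 228 and 248 TPM with the Hnrnph2 ASO and at 229, 238 and 224 TPM with the control ASO (0.00, SE 0.063). Without replicate 3 of the Hnrnph2 ASO, Gla was at 0.01 and Rpl36a at -0.05. The groups overlapped for both genes, and of the 12 genes tested among 17 listed for that neighbourhood Hnrnph2 was the 1 called.

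The same ASO comparison in other WT libraries shares no library with this one. Averaged over WT of the R206W cohort at 3 weeks and 8-week WT of the P209L cohort, limma called 20 genes (0.121%), of which 14 carry a gene name other than a model number. Of the 19 besides Hnrnph2, 18 had the same sign here and 11 were also at an unadjusted p under 0.05 here. Without replicate 3 of the Hnrnph2 ASO these counts were 15 and 10, as Rmnd1, Gm9800 and Gabra2 changed sign. Leaving out 1 library gave 10 to 13 such calls for 8 of the 12 libraries of those cohorts (control ASO replicate 2 and Hnrnph2 ASO replicates 2 and 3 at 8 weeks, and control ASO replicates 1 and 2 and Hnrnph2 ASO replicates 1, 2 and 3 of the R206W cohort). In the other direction, 17 of the 18 genes with the smallest p here that did not pass had the same sign in the average of the other cohorts (94.4%), against 59.2% of all genes tested. Across all genes the log2 fold changes correlated weakly, with Pearson's r of 0.15 against the R206W cohort and 0.08 against 8 weeks over 16510 genes without Hnrnph2, which are not independent replicates.

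Rufy1 was the named gene of that set nearest to a call here. Its log2 fold change was -0.48 here, -0.41 in WT of the R206W cohort, -0.44 in WT at 8 weeks and -0.58 in P209L. Mpnd stood at -0.28 here, -0.29 in the R206W cohort and -0.32 at 8 weeks. Ntm, which encodes the neuronal adhesion protein neurotrimin, was at 152, 154 and 158 TPM with the Hnrnph2 ASO and at 174, 167 and 177 TPM with the control ASO here, with a log2 fold change of -0.15 (adjusted p = 0.935), against -0.24 in the R206W cohort and -0.18 at 8 weeks. All 3 Hnrnph2 ASO libraries were below all 3 control ASO libraries for both Mpnd and Ntm.

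Taf15, an RNA-binding protein of the FET family, stood at -0.22 here (35.3, 31.5 and 35.5 TPM with the Hnrnph2 ASO, 38.9, 44.95 and 36.0 TPM with the control ASO), against -0.41 in the R206W cohort and -0.47 at 8 weeks. Marcksl1, an actin-regulating relative of MARCKS, was at -0.12 here, with the groups apart. Among those higher in the other cohorts, Ptpn6, the gene of the phosphatase SHP-1 of blood and microglial cells, was at 0.29 here, Cbarp, a regulator of voltage-gated calcium channels, at 0.12 and Rtl8c at 0.12 (0.08 without replicate 3 of the Hnrnph2 ASO). Cd59b, which encodes an inhibitor of complement, was the exception in sign, at 0.09 here against -0.53 in the R206W cohort and -0.46 at 8 weeks. The differences between this effect and each of the other WT effects were called for 0 genes by limma (704 at an unadjusted p under 0.05 for the R206W cohort, 4.26%, and 425 for 8 weeks, 2.57%).

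The ASO effect differed between the genotypes of the cohort for a few genes. The difference of the ASO effect, WT minus P209L, was called for 6 genes (0.0363%), all with a positive difference. One is a gene model, and the other 5 are on a list of 13 genes drawn up because P209L raises them in these samples, so their direction is not independent evidence. Ppp1r9b, the gene of the spine protein spinophilin, was at 329, 316 and 362 TPM with the Hnrnph2 ASO and at 332, 327 and 331 TPM with the control ASO in WT, and its log2 fold change was 0.02 (SE 0.058). In P209L it was at 338 and 368 TPM with the Hnrnph2 ASO and at 751, 755 and 750 TPM with the control ASO, a log2 fold change of -1.09 (adjusted p = 5.93e-05). The WT groups overlapped, whereas the P209L groups were far apart, and the P209L Hnrnph2 ASO libraries were near the WT level. The difference of effects was 1.11 (SE 0.087, adjusted p = 0.00168).

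Shank1, a scaffold of the postsynaptic density, averaged 128 ± 7.70 TPM with the Hnrnph2 ASO and 124 ± 5.44 TPM with the control ASO in WT (0.05, SE 0.063), and 115 ± 6.75 TPM (n = 2) and 226 ± 8.49 TPM in P209L, with a difference of effects of 1.02 (adjusted p = 0.00306). Ilrun, a regulator of innate immune signalling, averaged 128 ± 4.66 TPM with the Hnrnph2 ASO and 123 ± 0.748 TPM with the control ASO in WT (0.06, SE 0.047), and 124 ± 0.622 and 214 ± 5.13 TPM in P209L, with a difference of 0.84 (adjusted p = 0.00168). Ddn, which encodes the dendritic protein dendrin, differed by 1.06 (adjusted p = 0.0183) and Tnpo2, a transportin that carries RNA-binding proteins into the nucleus, by 0.82 (adjusted p = 0.0302). In WT, Ddn averaged 299 ± 30.5 TPM with the Hnrnph2 ASO and 299 ± 5.46 TPM with the control ASO, and Tnpo2 averaged 66.9 ± 0.985 and 69.4 ± 5.34 TPM. Leaving out the P209L Hnrnph2 ASO replicate 1 gave 13 calls of the difference, 5 positive and 8 negative. The calls of Ppp1r9b, Shank1 and Ilrun held in all 15 alternatives tried. The 2 alternatives that leave out a P209L Hnrnph2 ASO library leave 1 library in that group, which is assumed to vary like the other groups. That of Ddn ended in 11 of them, 8 of which left out 1 library, and that of Tnpo2 ended in 11, 9 of which left out 1 library.

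Over the 13 listed genes, limma called 0 in WT, where the median log2 fold change was -0.00 and the range -0.14 for Foxo4 to 0.13 for Phactr3, against a median of 0.04 over all genes tested. Without replicate 3 of the Hnrnph2 ASO, Foxo4 was at -0.08 and Phactr3 at -0.04. In P209L limma called 10 of the 13, all lower, with a median of -0.63, against 15 of all genes tested (0.0908%), 14 of them lower (0.0848%). The list was drawn up because P209L raises these genes in these samples, so neither this count nor its direction is independent evidence. The other members were Brsk1 (-0.07 in WT and -0.55 in P209L), Fbxl19 (-0.07 and -0.54), Adra1b (-0.07 and -0.63), Dzip1 (-0.04 and -0.83), Ppfia3 (0.04 and -0.61) and Ppm1a (0.13 and -0.47). Without that replicate Ppm1a was at 0.02 in WT.

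**Figure D3:**
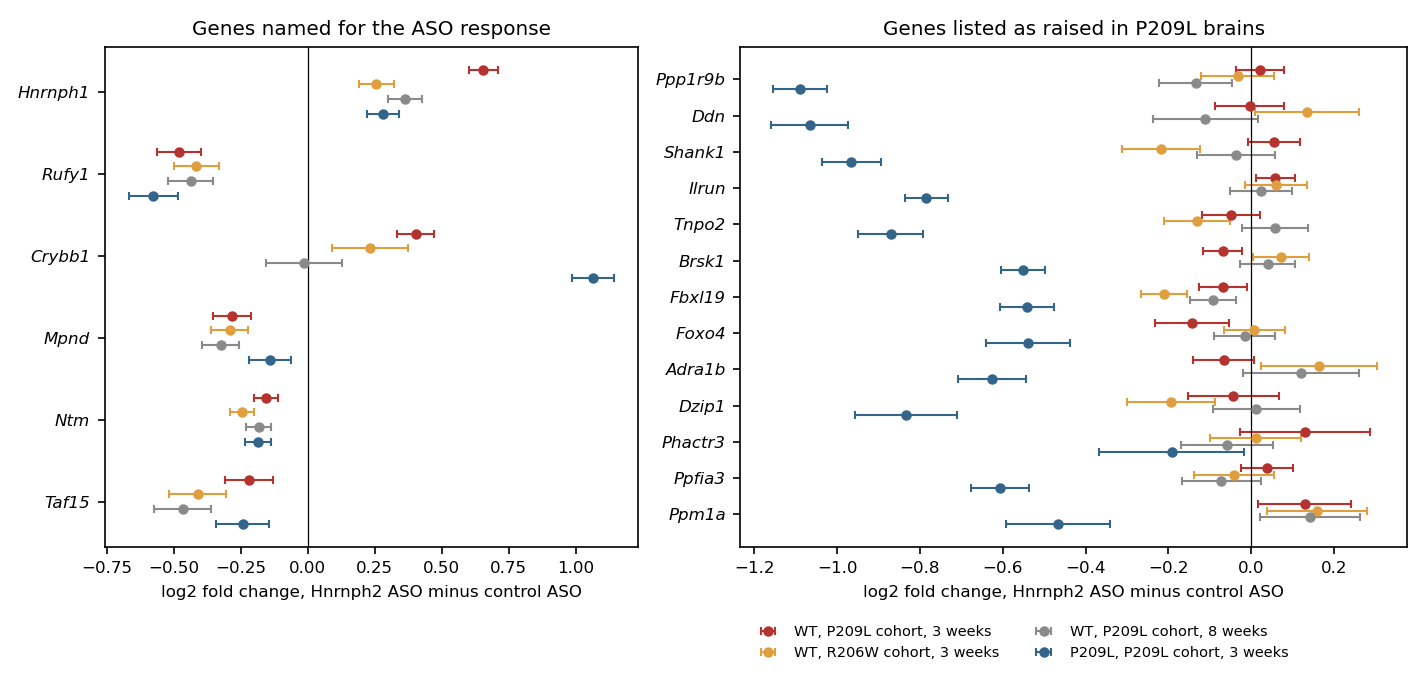
Log2 fold change (Hnrnph2 ASO minus control ASO) with its limma SE for genes named in the text (left) and for the 13 genes listed as raised in P209L brains (right), in 3-week WT of the P209L cohort, 3-week WT of the R206W cohort, WT at 8 weeks and P209L at 3 weeks. The 13 genes lie between -0.14 and 0.13 in 3-week WT of the P209L cohort, against a median of -0.63 in P209L, while Rufy1 lies between -0.41 and -0.58 in all 4 comparisons. The 13 genes were listed because P209L raises them in these samples, so their fall in P209L is not independent evidence.

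Genes of RNA processing were close to the level of the control ASO libraries. Of 29 other hnRNP and FET genes 0 were called, and the median log2 fold change was 0.08. The lowest of the list was Taf15. Of 33 SR proteins and splicing regulators 0 were called (median 0.02), with Srsf11 at 0.20, and of 26 transportins, importins and exportins 0 were called (median 0.05), with Tnpo1 at 0.22 and Ipo4 at 0.15. Of 8 paraspeckle and RNase H genes 0 were called. The RNase H1 gene Rnaseh1 was at 0.17 and the paraspeckle RNA Neat1 at 0.19. Without replicate 3 of the Hnrnph2 ASO the medians were 0.02 for the hnRNP and FET genes, -0.00 for the splicing genes and 0.03 for the transport genes. In the same fit Srsf11 was at 0.04, Tnpo1 at 0.10, Ipo4 at 0.07, Rnaseh1 at 0.05 and Neat1 at 0.25.

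Genes of microglia and complement did not pass the test either. C1qa, C1qb and C1qc, which encode the chains of the first complement component, were at 0.33, 0.27 and 0.21, each at an unadjusted p under 0.05 and each with groups that did not overlap. Over all genes tested, 2.79% were higher at an unadjusted limma p under 0.05, and 5.55% were higher with groups that did not overlap. C1qa was at 66.6, 62.3 and 86.9 TPM with the Hnrnph2 ASO and at 52.4, 60.4 and 56.5 TPM with the control ASO. Without replicate 3 of the Hnrnph2 ASO the values were 0.19 for C1qa, 0.18 for C1qb and 0.16 for C1qc. Of the 3, C1qc alone was then at an unadjusted p under 0.05, and the list held 1 such gene in place of 3. The lysosomal gene Cd68 was at 0.35 (15.9, 15.2 and 19.2 TPM with the Hnrnph2 ASO, 13.3, 12.3 and 13.04 TPM with the control ASO), and the microglial receptor gene Trem2 at 0.24. All 5 of these genes were positive in each of the other WT cohorts and in P209L. The lists as a whole stayed near the median of all genes, at 0.07 for the 10 of 15 complement genes tested and 0.04 for 20 microglial identity genes, with 0 called in each. Below 0 were 4 of the complement genes tested and 8 of the microglial identity genes. In bulk tissue a change in the number of cells of a type and a change in RNA per cell cannot be told apart.

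The type I interferon list, genes that cells switch on against viruses, had a median of 0.13 in WT (25 of 34 listed genes tested, 0 called, 3 with groups that did not overlap, all higher, against 5.55% of all genes tested). Its level summed over all listed genes was 227 to 253 TPM with the Hnrnph2 ASO and 207 to 223 TPM with the control ASO. The MHC class I list was at 0.09 (17 of 20 genes tested, 0 called), with the immunoproteasome gene Psmb8 at 0.35. Without replicate 3 of the Hnrnph2 ASO these medians were 0.15 and 0.05.

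Markers of cerebellar neurons were the lowest lists. Of the 15 granule and unipolar brush cell genes tested (16 listed) 12 were below 0 and 6 had groups that did not overlap, all lower, with a median of -0.16 and 0 called, and of 12 Purkinje cell genes 11 were below 0 and 4 did not overlap, all lower, with a median of -0.20 and 0 called. Over all genes tested 2.96% did not overlap in this direction. The summed granule list was 778 to 843 TPM with the Hnrnph2 ASO and 879 to 936 TPM with the control ASO, and the summed Purkinje list was 1020 to 1193 TPM with the Hnrnph2 ASO and 1194 to 1382 TPM with the control ASO. The groups did not overlap for either sum, although the Purkinje ranges nearly met. Gabra6, a GABA receptor subunit of granule cells, was at 50.7, 63.3 and 48.0 TPM with the Hnrnph2 ASO and at 69.0, 71.6 and 70.6 TPM with the control ASO (-0.39), and Arhgef33 was at -0.39, Car8 at -0.27 and Slc1a6, the Purkinje cell glutamate transporter, at -0.27, none of them called. The same lists had medians of -0.13 and -0.13 in WT of the R206W cohort, 0.08 and 0.01 in WT at 8 weeks and -0.02 and -0.01 in P209L. How far the share of cerebellum in each sample moved these genes was not tested.

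Synaptic and channel genes were near 0 as lists. The postsynaptic density list had a median of -0.02 over 44 genes (0 called), with Shank3, a scaffold protein gene, at -0.16 (122, 119 and 106 TPM with the Hnrnph2 ASO, 130, 129 and 129 TPM with the control ASO, and -0.10 without replicate 3 of the Hnrnph2 ASO). The voltage-gated ion channel list had a median of 0.00 over 37 genes (0 called). Within it, Kcnd2, a subunit of A-type potassium channels, was at 45.8, 48.1 and 38.2 TPM with the Hnrnph2 ASO and at 53.9, 50.6 and 51.7 TPM with the control ASO (-0.24, SE 0.081, not called, and -0.15 without replicate 3). Slc17a7, the vesicular glutamate transporter of cortical and granule cells, was at 721, 768 and 595 TPM with the Hnrnph2 ASO and at 775, 827 and 817 TPM with the control ASO (-0.22, and -0.11 without replicate 3). The myelin list had a median of -0.09 over 22 genes (0 called) and of -0.02 without replicate 3, with Mog, a myelin surface protein gene, at -0.21.

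**Figure D4:**
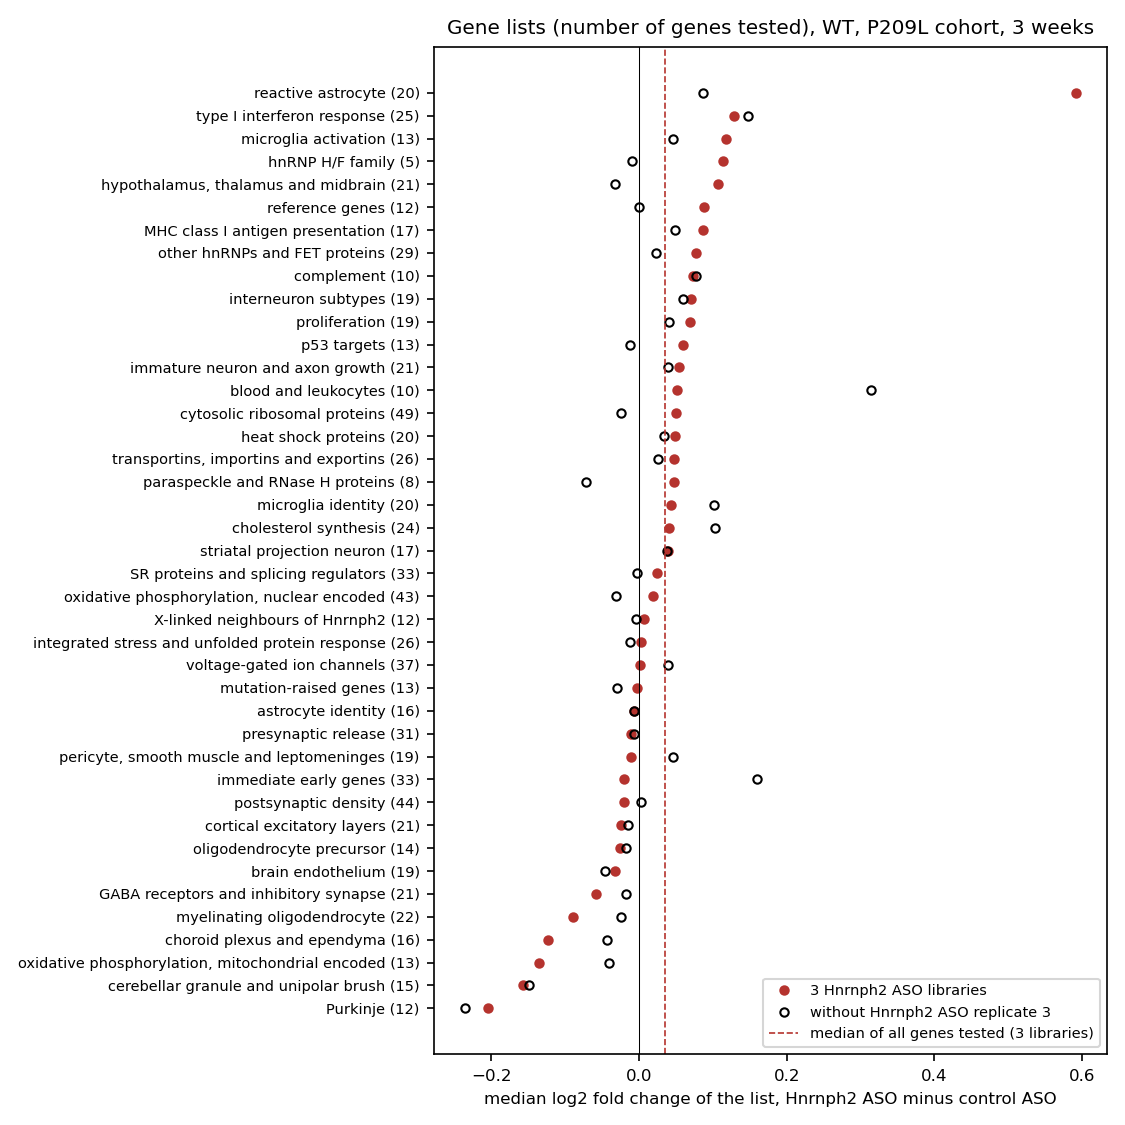
Median log2 fold change (Hnrnph2 ASO minus control ASO) of each gene list, with the number of genes tested in brackets, from all 3 Hnrnph2 ASO libraries (filled) and without replicate 3 of the Hnrnph2 ASO (open). The dashed line is the median of all genes, 0.04. The reactive astrocyte list is at 0.59 with replicate 3 and at 0.09 without it, and the Purkinje and granule cell lists stay lowest.

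The highest list median belonged to 1 library. Of the 20 reactive astrocyte genes tested (22 listed), 0 were called, and the median was 0.59 with all 3 Hnrnph2 ASO libraries and 0.09 without replicate 3. The summed list was 339, 333 and 1038 TPM in Hnrnph2 ASO replicates 1, 2 and 3, and 302 to 320 TPM in the control ASO libraries. Replicate 3 was more than 1 log2 unit above all 5 other libraries for 13 of the 20 genes, and its mean log2 level over the list was 4.27, the highest of the 35 libraries of the study. Over all named genes, 64 were more than 1 log2 unit above all 5 others in this library, against 0 to 2 in each of the other 5.

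The genes concerned are given as TPM, since they were chosen after their values were seen. Gfap, the intermediate filament gene of astrocytes, was at 171, 178 and 488 TPM in the Hnrnph2 ASO libraries and at 148 to 165 TPM in the control ASO libraries. Serpina3n, a protease inhibitor of reactive astrocytes, was at 14.1, 12.7 and 79.4 TPM with the Hnrnph2 ASO and at 12.4 to 12.9 TPM with the control ASO. Hspb1, a small heat shock protein gene, was at 15.9, 13.8 and 113 TPM with the Hnrnph2 ASO and at 13.5 to 14.1 TPM with the control ASO. In each gene the first and second Hnrnph2 ASO libraries were close to the control ASO libraries and the third was far above both.

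The same library held Cd44, an adhesion receptor gene, at 15.4 TPM, against 1.87 to 2.36 TPM in the other 5 libraries. The acute-phase gene Ptx3 was at 19.5 TPM, against 0.25 to 0.64 TPM in the other 5, and the protease inhibitor gene Timp1 at 18.4 TPM, against 0.57 to 1.09 TPM. Cdkn1a, which encodes the cell cycle inhibitor p21, was at 121 TPM, against 32.3 to 41.5 TPM. The glucocorticoid-responsive gene Fkbp5 was at 60.6 TPM, against 15.9 to 19.2 TPM, and the metallothionein gene Mt2 at 1049 TPM, against 303 to 375 TPM. By contrast the astrocyte water channel gene Aqp4 was at 68.8 TPM, within the 66.3 to 90.0 TPM of the other 5, the microglial receptor gene P2ry12 was at 21.8 TPM, below their 29.2 to 41.8 TPM, and Fos was at 43.9 TPM, below their 68.5 to 111 TPM. The levels of Hnrnph2 and Hnrnph1 in this library, 19.3 and 409 TPM, were close to those in the other 2 Hnrnph2 ASO libraries.

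**Figure D5:**
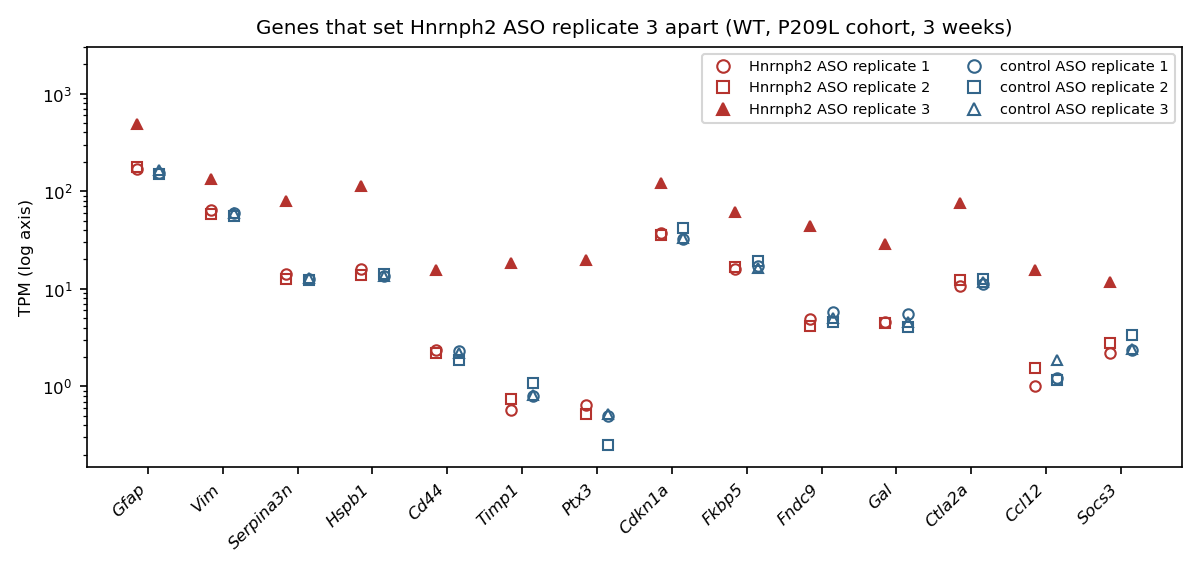
TPM on a log axis of 14 genes in each of the 3 Hnrnph2 ASO libraries (red, left of each pair) and the 3 control ASO libraries (blue), with Hnrnph2 ASO replicate 3 as a filled triangle. Replicate 3 lies above the other 5 libraries in every gene shown, as for Gfap at 488 TPM against 148 to 178 TPM, and the genes were chosen because of this.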

How the data were processed

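RNA of male mouse brain was sequenced from stranded total-RNA libraries, per the labels' protocols. The table deposited by the authors holds TPM (transcript abundance scaled for length and to the same total in every library) in 55573 rows for 35 libraries. Per the submitters' processing notes, the tools were RSEM, STAR (2.7.1a), GATK (version 4.0.4.0) and Trim Galore, with mm10 as genome build. The annotation, filters and strand setting are not given in the sources used here. Rows that share a symbol (237) were kept apart. TPM keeps no read totals, so no count model was used and counting error is unknown. WT libraries at 3 weeks were put in a cohort by the library number in their titles. The labels do not say that libraries came from separate animals, so p-values measure the spread between these libraries, which may be in part technical.

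The 16511 genes whose mean over the 6 WT libraries reached 1 TPM were tested on log2(TPM + 1), a scale that understates the change of low genes. The test was limma's moderated test (version 3.58.1, R version 4.3.3), two-sided, with a trend of the variance on expression, Benjamini-Hochberg adjustment over all genes and a call at an adjusted p under 0.05. The 2 ASO effects of the cohort and their difference came from a fit of its 11 libraries, and values involving other cohorts from a fit of all 35. The tests were tried on simulated data. Coordinates are from RefSeq GRCm38.p6, in which 15422 of the tested symbols were found.

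The comparison, members and gene lists were chosen with earlier results of these data known, and lists were given no test. Named genes were the hnRNP H/F family, up to 10 called genes in each direction with groups apart in TPM, made up to 10 by those with the smallest p whose groups did not overlap, up to 4 members of a list by smallest p, the 13 genes raised in P209L, and up to 5 called genes of each difference. Genes called in the other WT cohorts, the X-linked neighbours and genes of replicate 3 were named after their values were seen. Some genes that the rule selects are left out of the text. Alternatives were the pseudocount, the filter, scaling, the libraries fitted, the variance settings, the replicate block and leaving out each library. Leaving out the P209L libraries and those of the other WT cohorts was added after seeing the data.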

Additional observations from a re-analysis of the deposited data

Results flagged for a closer look

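The difference of the ASO effect between genotypes, WT minus P209L at 3 weeks, passed limma's test for 5 named genes. It was 1.11 for Ppp1r9b, 1.06 for Ddn, 1.02 for Shank1, 0.84 for Ilrun and 0.82 for Tnpo2 on the log2 scale. In WT the 5 genes lay between -0.05 and 0.06, and in P209L between -1.09 and -0.78. All 5 are on the list drawn up because P209L raises them in these samples, so this direction is not independent evidence. The calls of Ddn and Tnpo2 each ended in 11 of 15 alternatives.

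In 4 further cases every Hnrnph2 ASO library lay on one side of every control ASO library in WT of this cohort and on the opposite side in another group. Only genes followed in the text were looked through for this. In WT of this cohort the groups did not overlap for 8.51% of all genes tested. The share of all genes apart in opposite directions was not computed. Rnaseh2c was lower here (-0.32) and had higher values in P209L (0.19), a difference of -0.51 (unadjusted p = 0.00132, adjusted p = 0.826). Ilrun was apart in this way too, with the difference of 0.84 given above. In WT its groups were barely apart, with the lowest Hnrnph2 ASO library at 124.47 TPM and the highest control ASO library at 123.53 TPM. Gphn, the gene of the inhibitory synapse scaffold gephyrin, was at 0.16 here and -0.19 in WT of the R206W cohort, a difference of 0.35 (unadjusted p = 0.00097, adjusted p = 0.999). Sox11, a transcription factor gene of immature neurons, was at 0.37 here and -0.15 in WT of the R206W cohort, a difference of 0.52 (unadjusted p = 0.00252, adjusted p = 0.999). Except for Ilrun, none of these passed limma's test of the difference over all genes.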

How the results depend on the processing

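Hnrnph2 (log2 fold change -2.61 to -2.48) and Hnrnph1 (0.58 to 0.70) were called in all 19 alternatives, except Hnrnph1 in the fit of the 6 WT libraries alone (0.66, adjusted p = 0.0603), where fewer libraries estimate the spread. The count of 2 calls became 4 without a filter on low values, 4 in the fit of all 35 libraries, 3 in the fit of the 6 WT libraries alone (Hnrnph2, Snora41 and the gene model Gm27868) and 2 to 8 when 1 library was left out. The difference between genotypes gave 3 calls without the filter, 3 with the replicate block and 4 to 13 when 1 library was left out, against 6. Without the filter, the difference from the R206W cohort gave 1 call and that from 8 weeks 2, against 0 each. The average of the other WT cohorts gave 10 to 28 calls when 1 library was left out.

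Some values near 0 changed sign. With ratios to reference genes these were Hnrnpf (-0.043), Ppp1r9b (-0.050), Shank1 (-0.018), Ilrun (-0.015), Ppfia3 (-0.034) and Rpl36a (-0.072), with trimmed-mean scaling Hnrnpf (-0.0068), Ppp1r9b (-0.015) and Rpl36a (-0.036), and with mitochondrial genes left out Ppp1r9b (-0.0020) and Rpl36a (-0.023). When 1 library was left out, the range crossed 0 for Hnrnpf (-0.028 to 0.086), Grsf1 (-0.0097 to 0.20), Ppp1r9b (-0.033 to 0.064), Ddn (-0.059 to 0.082), Tnpo2 (-0.095 to 0.011), Dzip1 (-0.12 to 0.026), Phactr3 (-0.045 to 0.23), Cd59b (-0.0026 to 0.20) and Rpl36a (-0.053 to 0.049). The other 83 of 95 followed genes changed sign in none of the alternatives run. Of 778 list medians recomputed under the alternatives, 52 moved by more than the spread between libraries. Where no cause is given, it was not tested.

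Replicate numbers were not used as pairs in the main fit, as they are not stated to mark a shared animal or litter. The deviations of same-numbered libraries correlated at 0.104, 0.0707 and 0.0549. Every other pairing of the same libraries was below 0, from -0.069 to -0.0044. That is a hint of pairing from the data and not from the design. With the number as a block 2 genes were called, Hnrnph2 (-2.54) and Hnrnph1 (0.66, adjusted p = 0.00746). With 3 libraries a group, unknown depth and 1 library that stands apart, changes of the size seen in most genes could not be told from the spread between libraries.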

Other observations

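Blood genes varied between libraries. The summed level of the 16 listed genes, haemoglobins and leukocyte markers, was 5862, 3519 and 2186 TPM in Hnrnph2 ASO replicates 1, 2 and 3, and 2212 to 3243 TPM in the control ASO libraries, so the groups overlapped. The immediate early gene list, transcription factors induced by neuronal activity and by handling, was at 1810, 1574 and 1261 TPM in Hnrnph2 ASO replicates 1, 2 and 3 and at 1476 to 1529 TPM with the control ASO. Its median log2 fold change was -0.02 with all libraries and 0.16 without replicate 3, with 0 of 33 genes called. At an unadjusted limma p under 0.05, 3 of its genes were higher with all libraries and 7 without replicate 3. Over all 16511 genes tested these counts were 461 and 420. The list median was 0.19 in WT of the R206W cohort, 0.19 in WT at 8 weeks and -0.03 in P209L. Fosb was at 25.01, 15.1 and 13.1 TPM with the Hnrnph2 ASO and at 11.9, 10.7 and 14.0 TPM with the control ASO, so its groups overlapped.

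The P209L Hnrnph2 ASO library that shares its name stem with WT Hnrnph2 ASO replicate 3 did not share its profile. Its Gfap was at 192 TPM, its Serpina3n at 15.3 TPM, its Hspb1 at 12.4 TPM and its Ptx3 at 0.60 TPM, and its mean log2 level over the reactive astrocyte list was 2.77, rank 12 of the 35 libraries. Over the 34 other libraries of the study the highest value was 272 TPM for Gfap, 23.7 TPM for Serpina3n, 22.2 TPM for Hspb1 and 0.76 TPM for Ptx3, each below the value in WT Hnrnph2 ASO replicate 3. For Fkbp5 the highest of the 34 was 64.15 TPM, above the 60.64 TPM of WT Hnrnph2 ASO replicate 3.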
